A study of Homo sapiens with 9 samples.

Results

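The 5 mucin genes described here are MUC5AC, MUC5B, MUC1, MUC16 and MUC20. They were chosen by gene symbol from the 61552 genes listed for each library, with earlier results of these data known. The gene-level values of the control, 10 mM and 20 mM libraries entered that choice, so the differences between conditions in these 5 genes are given as a description and carry no test. Of the 5, 4 had a value above 0 in any library, and the same 4 passed the filter on low reads that left 16572 genes for testing. MUC16 was at 0 throughout.

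The libraries came from MDA-MB-231, an established human line of triple-negative breast cancer (TNBC), labeled wild type and grown in DMEM with 10% fetal serum. The cells received 10 or 20 mM 2-deoxy-glucose (2-DG), a glucose analog that is phosphorylated but cannot proceed through glycolysis, or phosphate-buffered saline as the control, for 24 h. Each of the 3 conditions had 3 libraries, all of the same cell line, and nothing in the sources used here says whether they came from separate cultures. The spread between them, and the p-values that rest on it, may therefore be technical. Recovered library totals ranged from 30974968 to 40843638 reads. Values are FPKM (fragments per kilobase of transcript and per unit of library size), a scale that corrects for gene length and sequencing depth. Setting levels of different genes side by side on it depends on the gene lengths used. Coverage along the transcripts was not tested.

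Mucins are large glycoproteins whose central domains carry dense O-linked glycans. Gel-forming mucins such as MUC5AC and MUC5B are secreted by goblet cells and submucosal glands and polymerize into mucus, whereas membrane mucins such as MUC1, MUC16 and MUC20 span the cell membrane and line the apical surface of epithelia. MUC1 and MUC16 are known as the sources of the tumor antigens CA15-3 and CA125.

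The reads that stand behind these genes depend on their sequence, because the O-glycosylated domains are built of tandem repeats. MUC1 and MUC20 were the 2 members whose most frequent repeat period was short. Their commonest repeat units are printed to show stretches in which a read has more than 1 possible position within the gene. They come from the longest coding sequences of GENCODE release 29 on the GRCh38 build, and the codons for threonine and serine in them encode the residues that carry O-linked glycans.
MUC1, 60 bases: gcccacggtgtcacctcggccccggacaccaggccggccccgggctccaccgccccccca
MUC20, 57 bases: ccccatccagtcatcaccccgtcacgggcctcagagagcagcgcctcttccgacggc
The MUC1 unit occurs 19 times in 3786 coding bases, from coding base 463, and the MUC20 unit occurs 10 times in 2169 coding bases, from coding base 547. Windows of 100 bases that recur within the same coding sequence made up 35.9% of the windows of MUC1 and 21.7% of those of MUC20. In MUC5AC and MUC5B the same share was 10.8% and 19.8%, and in MUC16 it was 0.318%. The most frequent periods of these genes were long, at 1119, 1671 and 468 bases. Units of any shorter repeats in them were not searched for.

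A second kind of sharing, of 100-base windows between genes, was found for MUC20 only. Of its 3950 distinct 100-base windows, 1726 (43.7%) also occurred in other annotated genes, chiefly in MUC20-OT1 (1365 windows) and in the pseudogene MUC20P1 (631 windows). None of the windows of MUC5AC, MUC5B, MUC1 or MUC16 occurred in another gene. Windows were read in the direction of transcription, so shorter overlaps and those on the opposite strand are outside this count. MUC1 shares 48 exon bases with AL713999.1, and MUC5B overlaps MUC5B-AS1 on the opposite strand over 434. Both of these other genes had 0 reads. How the authors' counting treated reads with several positions is not given in the sources used here.

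MUC5AC (ENSG00000215182) is a protein-coding gene on the plus strand of chromosome 11, from 1157953 to 1201138 of GRCh38. It encodes a gel-forming mucin of the stomach and airway surface. In the control libraries it stood at 1.35, 1.69 and 1.39 FPKM, which correspond to 834, 1082 and 834 recovered reads. With 10 mM 2-DG the values were 0.287, 0.128 and 0.158 FPKM (176, 91 and 95 reads). With 20 mM they were 0.0315, 0.0576 and 0.121 FPKM (17, 40 and 70 reads). Every control library was above every treated library, and the lowest control value was 4.69 times the highest value at 10 mM. The 20 mM libraries all lay below the 10 mM libraries too, but by a factor of only 1.05 at the closest pair. Means were 1.48 ± 0.188 FPKM in the control, 0.191 ± 0.0846 FPKM at 10 mM and 0.0701 ± 0.0462 FPKM at 20 mM (SD, n = 3 each).

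The mean of MUC5AC was 7.73-fold lower at 10 mM than in the control, a log2 ratio of −2.95 with a standard error (SE) of 0.38 between libraries. At 20 mM it was 21.1-fold lower, a log2 ratio of −4.40 (SE 0.56), which left 4.75% of the control level. The log2 ratios of pooled, depth-scaled recovered reads were −2.98 and −4.40. Counting error alone gave 95% intervals of −3.14 to −2.82 and −4.67 to −4.14 for them, narrower than the spread between libraries. The step from 10 to 20 mM was a log2 ratio of −1.45 (SE 0.66). Its size depended on 20 mM replicate 3, the highest library of its group. Without that library the step was larger, at −2.10, and the ratio of 20 mM to control was −5.05. In bulk RNA, fewer cells expressing a gene and less RNA of that gene per cell cannot be told apart, which holds for every gene below.

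MUC5B (ENSG00000117983) follows MUC5AC on the same strand, from 1223066 to 1262172 of chromosome 11. It encodes the gel-forming mucin of airway glands and saliva. Control libraries gave 0.917, 1.40 and 1.16 FPKM (606, 956 and 737 reads). The 10 mM libraries gave 0.168, 0.128 and 0.142 FPKM (110, 97 and 91 reads). The 20 mM libraries gave 0.0555, 0.0608 and 0.111 FPKM (32, 45 and 68 reads). The 3 conditions again formed 3 separate ranges in descending order of dose, with a wide gap below the control and a narrow one, 1.15-fold, between the doses.

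For MUC5B the mean was 1.16 ± 0.243 FPKM in the control, 0.146 ± 0.0206 FPKM at 10 mM and 0.0757 ± 0.0304 FPKM at 20 mM (SD, n = 3 each). It was 7.93-fold lower at 10 mM (log2 ratio −2.99, SE 0.21) and 15.3-fold lower at 20 mM (log2 ratio −3.94, SE 0.38). The 20 mM level was 6.53% of the control. From 10 to 20 mM the log2 ratio was −0.95 (SE 0.35).

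MUC1 (ENSG00000185499), on the minus strand of chromosome 1 from 155185824 to 155192916, encodes the transmembrane mucin of glandular epithelia whose cytoplasmic tail takes part in signaling. It was the most abundant of the 5 on the FPKM scale. The control libraries held 7.49, 7.06 and 6.65 FPKM (639, 621 and 548 reads). Those with 10 mM 2-DG held 4.17, 4.81 and 4.40 FPKM (352, 472 and 363 reads). Those with 20 mM held 3.09, 4.06 and 3.36 FPKM (230, 388 and 267 reads). The reads assume the length of 2401 bases that the FPKM values gave, against 4717 exon bases in GENCODE release 29, and a multiple of that length would raise them in proportion. The ranges did not overlap, although the highest 20 mM library came within 1.03-fold of the lowest 10 mM library.

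The mean of MUC1 was 7.07 ± 0.420 FPKM in the control, 4.46 ± 0.325 FPKM at 10 mM and 3.51 ± 0.500 FPKM at 20 mM (SD, n = 3 each). The log2 ratio to the control was −0.66 (SE 0.08) at 10 mM and −1.01 (SE 0.13) at 20 mM, where 49.6% of the control level remained. The 2 treated doses differed by a log2 ratio of −0.35 (SE 0.13). The proportional reduction of MUC1 was thus smaller than that of MUC5AC and MUC5B at each dose.

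MUC20 (ENSG00000176945), on the plus strand of chromosome 3 from 195720882 to 195741123, encodes a small membrane mucin known from kidney that binds the MET receptor. It was the only member with higher values under 2-DG, and it was close to the lower end of what these libraries could measure. Control libraries had 0.0494, 0.0319 and 0.0384 FPKM, from 12, 8 and 9 reads. The 10 mM libraries had 0.0833, 0.0824 and 0.0936 FPKM, from 20, 23 and 22 reads. The 20 mM libraries had 0.142, 0.0993 and 0.128 FPKM, from 30, 27 and 29 reads. The ranges went up in order of dose and did not overlap, with a factor of 1.06 between the nearest 10 and 20 mM libraries.

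Mean MUC20 was 0.0399 ± 0.00885 FPKM in the control, 0.0864 ± 0.00625 FPKM at 10 mM and 0.123 ± 0.0217 FPKM at 20 mM (SD, n = 3 each). These means correspond to a 2.17-fold (log2 ratio 1.11, SE 0.19) and a 3.08-fold (log2 ratio 1.62, SE 0.24) higher level than in the control. The totals of 29, 65 and 86 reads set wide counting intervals on the log2 ratios of depth-scaled reads. These ran from 0.46 to 1.80 at 10 mM and from 0.98 to 2.27 at 20 mM. These totals assume a length of 6837 bases, which the FPKM values gave and which exceeds the 4249 exon bases of GENCODE release 29. The log2 ratio between the doses was 0.51 (SE 0.16), and that of depth-scaled reads had a counting interval of 0.01 to 0.98.

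The genes that share sequence with MUC20 had values of their own. MUC20-OT1, a noncoding RNA on the same strand whose exons cover 1820 of the 4249 exon bases of MUC20, gave 302, 436 and 367 reads in control libraries, 644, 616 and 685 in those with 10 mM, and 574, 745 and 654 in those with 20 mM. Its mean level was 0.589 ± 0.0978, 1.01 ± 0.140 and 1.08 ± 0.0382 FPKM (SD, n = 3 each). MUC20-OT1 was thus higher in all 6 treated libraries than in the control libraries. MUC20P1 gave 7, 3 and 5 reads in control libraries, 12, 12 and 17 with 10 mM, and 5, 8 and 10 with 20 mM. The values of MUC20 are uncertain to the extent that the counting divided reads among the 3 genes, and the part of this sharing in the MUC20 differences was not tested.

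MUC16 (ENSG00000181143), the largest membrane mucin, lies on the minus strand of chromosome 19 from 8848844 to 8981342. It was listed at 0 in all 9 libraries. Over its 43830 exon bases, 3 counts, the limit that a count of 0 allows, correspond to between 0.00168 and 0.00221 FPKM per library and to 0.000213 FPKM over all 9. No ratio between conditions can be formed.

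**Figure D1:**
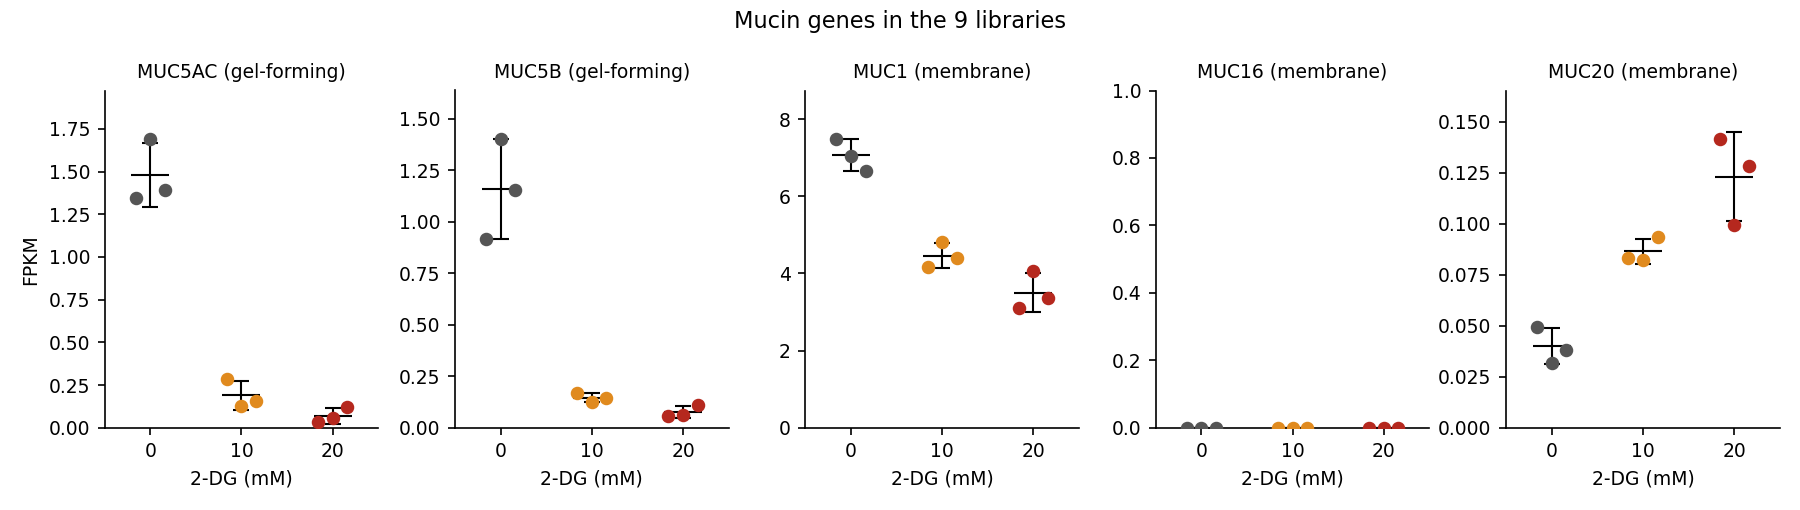
FPKM of each mucin gene (vertical axis, linear, one scale per gene starting at 0) against the 2-DG dose in mM, with 1 point per library and the mean ± SD of 3 libraries in black. MUC5AC, MUC5B and MUC1 step down from control to 10 mM to 20 mM without overlap, MUC20 steps up on a scale below 0.15 FPKM, and MUC16 is at 0.

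The 4 detected mucins therefore had non-overlapping libraries in each of the 3 comparisons, 3 of them lower and 1 higher with dose. Such separation was common in these data. Between 10 mM and control, 22.7% of the 16572 tested genes were lower and 17.8% higher without overlap. Between 20 mM and control the shares were 29.9% lower and 23.3% higher, and between 20 and 10 mM 7.14% lower and 4.71% higher. Genes separated in all 3 comparisons and ordered by dose made up 3.67% (lower) and 2.13% (higher) of those tested. Both doses were set against the same 3 control libraries, so their ratios are not independent of each other.

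**Figure D2:**
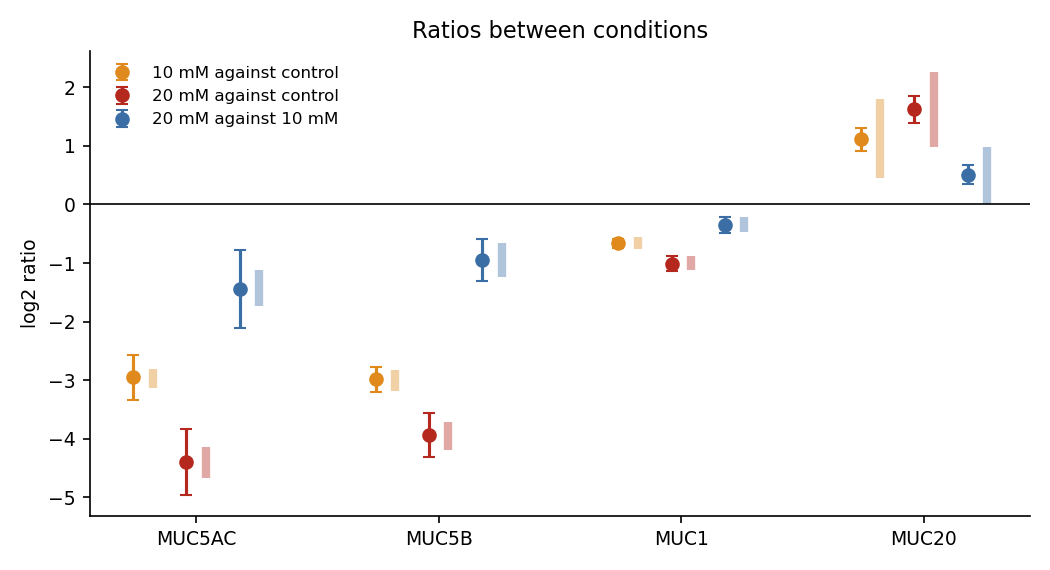
Log2 ratio of mean FPKM (vertical axis) for the 4 detected mucins in 3 comparisons, with points and thin bars for the ratio ± SE over 3 libraries per condition, and pale bars for the 95% counting interval from recovered reads. The ratios of MUC5AC and MUC5B to the control are near −3 at 10 mM and near −4 at 20 mM, those of MUC1 lie between −0.66 and −1.01, and those of MUC20 lie above 0 with the widest counting intervals.

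The composition of the summed RNA of these 5 genes shifted with these changes. The summed level of the 5 genes was 9.81, 10.2 and 9.24 FPKM in the control libraries, 4.71, 5.15 and 4.79 FPKM at 10 mM and 3.32, 4.28 and 3.72 FPKM at 20 mM. MUC1 held between 69.3% and 76.4% of that sum in the control, between 88.6% and 93.4% at 10 mM and between 90.3% and 94.9% at 20 mM. By FPKM, the sum of the 5 in the treated libraries was thus mostly MUC1. These shares depend on the MUC1 length of 2401 bases that the FPKM values gave, against 4717 exon bases in GENCODE. For the same reads, a longer length would lower them. In recovered reads, MUC1 had 1808 in the control, below the 2750 of MUC5AC and the 2299 of MUC5B. At 10 mM MUC1 had 1187, against 362 and 298, and at 20 mM 885, against 127 and 145. Other mucins are outside the sum of the 5, so its percentages are not shares of all mucin RNA. In the control, 10 mM and 20 mM groups, MUC6 averaged 0.559, 0.709 and 0.850 FPKM. The membrane mucin PODXL averaged 50.6, 42.3 and 38.7 FPKM.

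Set against the other tested genes, the levels of the gel-forming mucins moved from the middle of the distribution to its lower end. The mean of MUC5AC exceeded that of 41.0% of the tested genes in the control, and 12.2% and 4.27% with 10 and 20 mM. For MUC5B the shares were 37.2%, 9.53% and 4.71%. MUC1 stayed above the median gene, at 69.5%, 61.3% and 57.4%, whereas MUC20 remained among the least abundant tested genes, at 2.08%, 5.53% and 8.19%.

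MUC5AC and MUC5B resembled each other in level and, by FPKM, in their order of libraries. The ratio of MUC5AC to MUC5B, both in FPKM, was 1.47, 1.21 and 1.21 in the control libraries, 1.71, 1.00 and 1.11 at 10 mM and 0.566, 0.947 and 1.10 at 20 mM. Within each of the 3 conditions the libraries ranked by FPKM in the same order for both genes. This was noticed after the values had been seen. The same order in all 3 conditions was found in 668 (4.03%) of the other 16571 tested genes, and MUC1 and MUC20 matched it in 0 of 3 conditions. The shared order rests on near ties. Control replicates 1 and 3 each had 834 reads of MUC5AC. Scaling by median ratios, with factors of 0.986 and 1.04, reverses this pair for MUC5AC but not for MUC5B, so the shared order is lost there. At 10 mM, replicates 2 and 3 had 91 and 95 reads of MUC5AC and 97 and 91 of MUC5B.

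**Figure D3:**
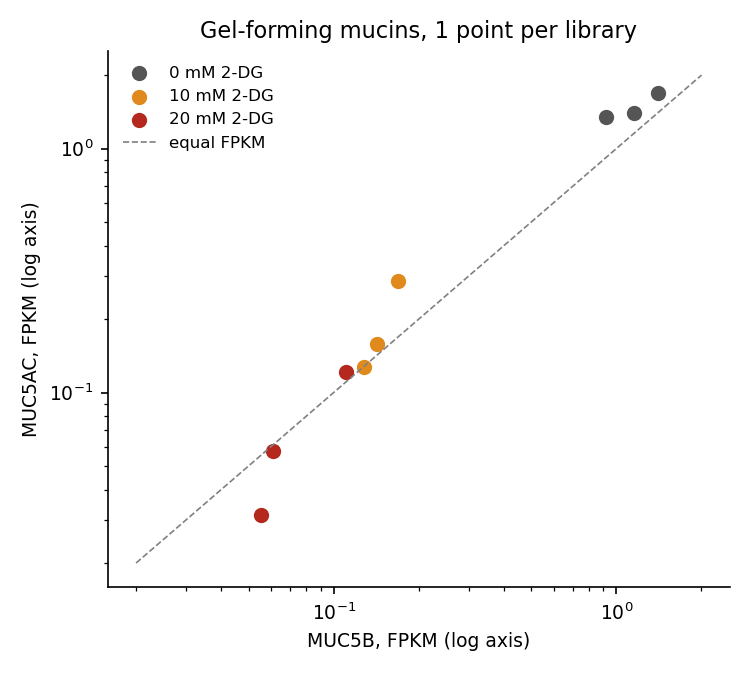
MUC5AC against MUC5B, 1 point per library, both in FPKM on log axes, colored by 2-DG dose, with a dashed line at equal levels. Control libraries sit near 1 FPKM and slightly above the line, treated libraries sit between 0.03 and 0.3 FPKM, and within each dose the library with more MUC5B also has more MUC5AC.

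MUC5AC and MUC5B lie in a cluster of gel-forming mucin genes on chromosome 11, in the order MUC6, MUC2, MUC5AC, MUC5B, followed by TOLLIP. The level of MUC6, a gastric gland mucin, was 0.559 ± 0.117 FPKM in the control, 0.709 ± 0.0519 FPKM with 10 mM and 0.850 ± 0.1003 FPKM with 20 mM (SD, n = 3 each). On the log2(FPKM + 1) scale, which understates the change of low genes, MUC6 differed by 0.14 at 10 mM (limma, adjusted p = 0.205) and was higher by 0.25 at 20 mM (SE 0.07, limma, adjusted p = 0.0258). The adjusted p at 20 mM ranged from 0.0142 to 0.120 over the alternative settings and passed the threshold in all but 4 of 14. MUC2, the intestinal gel-forming mucin, lies 47441 bases before MUC5AC and had 30, 13 and 8 reads in the control, 10 mM and 20 mM groups, too few for testing.

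TOLLIP, an adaptor of Toll-like receptor signaling, begins 12198 bases beyond MUC5B on the opposite strand. Its level was 20.7 ± 1.25, 24.8 ± 1.62 and 27.6 ± 0.157 FPKM (SD, n = 3 each), higher at 10 mM by 0.25 (limma, adjusted p = 0.0160) and at 20 mM by 0.40 (limma, adjusted p = 0.000988) on the log2(FPKM + 1) scale. MUC6 and TOLLIP, at the ends of this stretch, were thus higher at 20 mM, while MUC5AC and MUC5B within it had lower values.

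MUC1 had neighbors of another pattern. THBS3, a thrombospondin 2671 bases away, was at 2.08 ± 0.139, 2.13 ± 0.0570 and 2.04 ± 0.315 FPKM (SD, n = 3 each) and differed from the control on the same scale by 0.03 at 10 mM (limma, adjusted p = 0.864) and −0.02 at 20 mM (limma, adjusted p = 0.878). TRIM46, 852 bases away on the other side, had only 11, 15 and 8 reads per condition. Beside MUC20, the membrane mucin MUC4 had 124 control reads and 78 reads at each dose. Its difference was −0.03 on the log2(FPKM + 1) scale at both 10 mM (limma, adjusted p = 0.481) and 20 mM (limma, adjusted p = 0.500), a scale on which so low a gene can hardly move. APOD, on the far side of MUC20, had 0, 1 and 0 reads, and both neighbors of MUC16, MBD3L1 and OR1M1, were at 0.

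**Figure D4:**
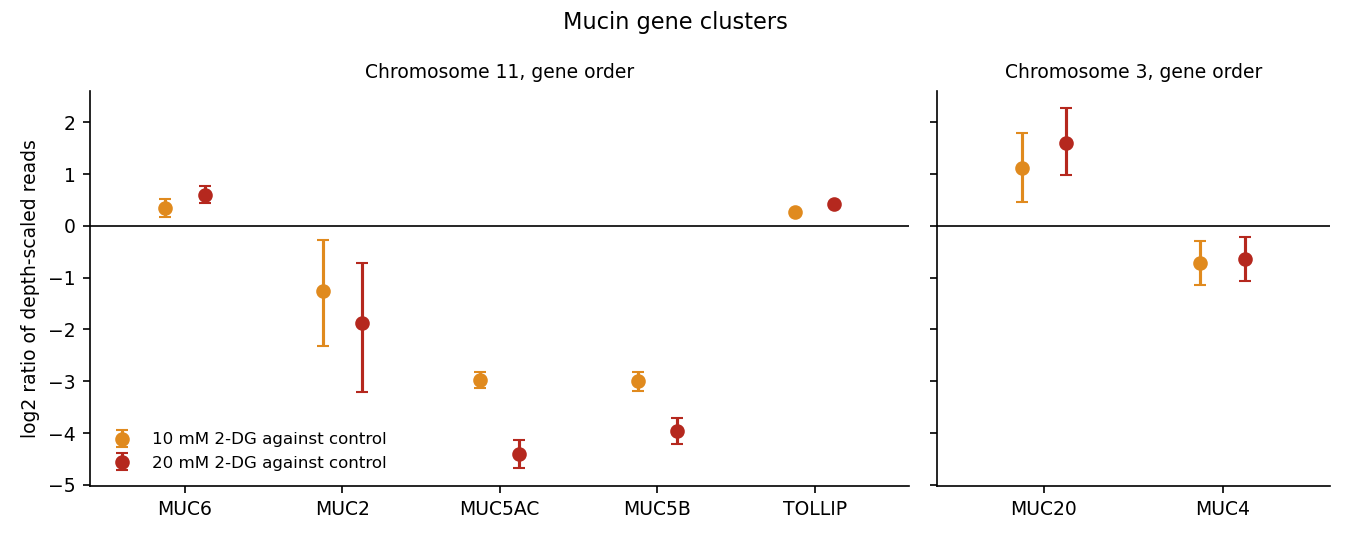
Log2 ratio of depth-scaled recovered reads (vertical axis) of 10 mM and 20 mM 2-DG to control for mucin genes and TOLLIP in chromosomal order, with 95% counting intervals that do not include the spread between libraries. On chromosome 11, MUC2, MUC5AC and MUC5B lie below 0 and MUC6 and TOLLIP above it, and on chromosome 3, MUC20 lies above 0 and MUC4 below it.

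The genes whose log2(FPKM + 1) tracked each mucin most closely over the 9 libraries, among protein-coding genes with a mean of at least 1 FPKM, were picked from all tested genes for that likeness, and their points share libraries and conditions. For MUC5AC they were ICMT, which methylates prenylated proteins (Pearson r = 0.999), WWC1 (r = 0.997) and the condensin subunit NCAPD3 (r = 0.997). ICMT had means of 49.6, 34.0 and 31.8 FPKM in the control, 10 mM and 20 mM groups. For MUC5B they were the iron regulator HFE (r = 0.995, with means of 3.51, 1.54 and 1.37 FPKM), LPCAT1 (r = 0.995) and the folate enzyme MTHFD1 (r = 0.995).

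For MUC1 the closest were UBA7, the activating enzyme of ISG15 (r = 0.989), the uracil-DNA glycosylase UNG (r = 0.989) and ERI3 (r = 0.988). UNG had means of 21.1, 12.5 and 10.3 FPKM. For MUC20 they were the annexin ANXA6 (r = 0.966), the stress-responsive gene GADD45A (r = 0.960) and CNBP (r = 0.952). GADD45A had means of 31.4, 46.5 and 56.2 FPKM.

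Markers were read to check the line. VIM, the mesenchymal filament gene, averaged 285, 289 and 274 FPKM and CD44 averaged 69.8, 58.3 and 56.6 FPKM in the control, 10 mM and 20 mM groups. EGFR, a receptor often high in TNBC, had higher mean values under 2-DG, at 14.0, 24.8 and 26.0 FPKM. The estrogen receptor ESR1 averaged at most 0.00607 FPKM and the progesterone receptor PGR at most 0.0140 FPKM, while ERBB2 averaged 8.81, 5.91 and 5.76 FPKM. Genes of secretory epithelium differed in level. SPDEF, a transcription factor of goblet cells, averaged 50.3, 43.8 and 36.2 FPKM and EPCAM 3.75, 3.31 and 2.85 FPKM. The epithelial cadherin CDH1 was low, at 0.365, 0.0493 and 0.0686 FPKM. Of the markers of other cells, PTPRC, CD3E and CDH5 reached at most 0.0327 FPKM in any library, PECAM1 averaged 1.72, 1.23 and 0.914 FPKM, and COL1A1 averaged 1.20, 0.965 and 1.10 FPKM. The part of such differences in the mucin values was not tested.

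Genes that work with mucins were grouped in 6 lists of 86 genes in all, of which 78 were above 0 and 54 were tested. The lists were written from general knowledge, but with earlier results of these data known. The calls and p-values of their genes carry that limit. At 10 mM, 4 of the 54 were higher and 14 lower than in the control (limma on log2(FPKM + 1), Benjamini-Hochberg adjusted p under 0.05 over all tested genes). Over all tested genes, 12.1% were called higher and 17.5% lower. At 20 mM, 7 were higher and 18 lower, where 15.4% of all tested genes were called higher and 21.6% lower. Scaling by median ratios changed the split to 7 higher and 12 lower at 10 mM and to 9 higher and 14 lower at 20 mM. Between 20 and 10 mM the same test called none of the 54, and none of all the tested genes (0%), with 2 of the 54 at an unadjusted p under 0.05 and none called by limma-voom. The cut-offs of the study's DEG rule, an unadjusted p under 0.05 with an absolute log2 fold change over 1, were also applied to the limma differences, although the study set them on fold changes from a count model. On this scale, which shrinks the change of low genes, 2 of the 54, PARM1 and AGR2, were higher and 0 lower at each dose. They called 0.579% of all tested genes higher and 1.16% lower at 10 mM, 0.965% higher and 1.96% lower at 20 mM, and 0.00603% higher and 0% lower between the doses. With the fold change taken as the ratio of mean FPKM, PARM1 and AGR2 were again the 2 higher genes at each dose, and GCNT1 (log2 ratio −1.01) was lower at 10 mM. At 20 mM 3 genes were lower, GCNT1 (−1.28), GALNT18 (−1.16) and GALNT14 (−1.07). GALNT14 had only 121, 71 and 58 reads in the control, 10 mM and 20 mM groups. Its limma call at 20 mM (limma, adjusted p = 0.0205) was lost in 5 of 14 alternative settings, with an adjusted p of up to 0.0808. Of all tested genes, that reading called 4.05% higher and 5.03% lower at 10 mM, 5.25% higher and 7.19% lower at 20 mM, and 0.531% higher and 0.495% lower between the doses. The median log2 fold change over the 54 was −0.02 at 10 mM and −0.08 at 20 mM, beside −0.01 and −0.02 over all tested genes.

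The enzymes that start O-linked glycosylation, the GALNT family, which attach N-acetylgalactosamine to serine and threonine, were the list with the most calls at 20 mM. Of 20 genes, 12 were tested. At 10 mM 6 were lower (50%) and 0 higher, beside 17.5% and 12.1% over all tested genes. At 20 mM 8 were lower (66.7%) and 1 higher (8.33%), beside 21.6% and 15.4%. The median log2 fold change of the 12 was −0.25 at 10 mM and −0.34 at 20 mM. GALNT18 went from 7.06 ± 0.443 FPKM in the control to 3.63 ± 0.573 at 10 mM and 3.16 ± 0.320 at 20 mM (SD, n = 3 each), a log2 fold change of −0.81 (SE 0.11, limma, adjusted p = 0.000460) and −0.96 (SE 0.11, limma, adjusted p = 0.000113).

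GALNT2, a broadly expressed member of the family, averaged 21.0, 12.9 and 12.6 FPKM and was lower, with log2 fold changes of −0.66 at 10 mM (limma, adjusted p = 0.000239) and −0.70 at 20 mM (limma, adjusted p = 0.000119). GALNT5 averaged 6.58, 4.56 and 3.95 FPKM, with a log2 fold change of −0.61 at 20 mM (limma, adjusted p = 0.00126). GALNT1 averaged 13.6, 9.59 and 9.16 FPKM, with −0.51 at 20 mM (limma, adjusted p = 0.00417). These 4 enzymes were called at both doses under each of the 14 alternative settings. GALNT3, the 1 gene of the list that was higher, averaged 12.9, 15.7 and 16.4 FPKM. Its log2 fold change at 20 mM was 0.33 (limma, adjusted p = 0.0290), which did not pass the threshold in 6 of the 14 alternatives (adjusted p up to 0.0977).

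The enzymes that extend and cap the first sugar gave fewer calls. Of 16, 13 were tested. At 10 mM 1 was higher and 1 lower (7.69% each), below the 12.1% and 17.5% over all tested genes. At 20 mM 1 was higher (7.69%) and 2 were lower (15.4%), below the 15.4% and 21.6% over all tested genes. GCNT1, which builds the core 2 branch, was lower at both doses, with means of 1.94, 0.961 and 0.797 FPKM and log2 fold changes of −0.59 (limma, adjusted p = 0.00145) and −0.71 (limma, adjusted p = 0.000325). ST6GALNAC4, a sialyltransferase, averaged 20.3, 24.7 and 28.0 FPKM and was higher by 0.45 at 20 mM (limma, adjusted p = 0.00284). Its call at 10 mM, 0.27 (limma, adjusted p = 0.0405), was lost in 8 of 14 alternatives, with an adjusted p of up to 0.128. C1GALT1C1, the chaperone of the core 1 enzyme, averaged 12.9, 10.7 and 9.75 FPKM, and its call at 20 mM, −0.37 (limma, adjusted p = 0.0226), was lost in 7 of 14 (adjusted p up to 0.0782).

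Genes of the goblet cell program were called in both directions. Of 14, 8 were tested, with 1 higher and 1 lower at 10 mM (12.5% each). At 20 mM, 1 was higher (12.5%) and 3 were lower (37.5%). Over all tested genes, 12.1% were called higher and 17.5% lower at 10 mM, and 15.4% higher and 21.6% lower at 20 mM. Among the genes not tested, AGR3 and SCGB1A1 had 0 reads over the 9 libraries, CLCA1 and BPIFB1 had 1 each, ERN2 had 14 and FOXA1 had 39. AGR2, an endoplasmic reticulum protein needed for mucin folding, was at 96.6 ± 9.13 FPKM in the control, 215 ± 20.4 FPKM with 10 mM and 223 ± 7.22 FPKM with 20 mM (SD, n = 3 each). It was higher by 1.15 (SE 0.09, limma, adjusted p = 1.82e-05) and 1.21 (SE 0.09, limma, adjusted p = 7.84e-06) on the log2 scale, opposite in sign to the ratios of MUC5AC and MUC5B.

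SPDEF averaged 50.3, 43.8 and 36.2 FPKM. Its log2 fold change was −0.20 at 10 mM (limma, adjusted p = 0.155) and −0.46 at 20 mM (limma, adjusted p = 0.00475), and the 10 mM value passed the threshold in 1 of the 14 alternatives, without 10 mM replicate 2 (adjusted p = 0.0167). TFF3, a trefoil peptide secreted with mucus, averaged 12.9, 8.45 and 8.13 FPKM and was lower, with log2 fold changes of −0.59 (limma, adjusted p = 0.0115) and −0.61 (limma, adjusted p = 0.00729). TFF1, another trefoil peptide, was called at 20 mM only, at −0.42 (limma, adjusted p = 0.0447), and lost that call in 10 of 14 alternatives (adjusted p up to 0.141).

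Among the other membrane mucins, 7 of 18 were tested, and the same 2 genes were called at each dose. With 1 higher and 1 lower, each direction held 14.3% of the tested mucins. The shares over all tested genes were 12.1% higher and 17.5% lower at 10 mM, and 15.4% and 21.6% at 20 mM. PARM1, a mucin-like androgen-regulated protein, was higher, at 3.20 ± 0.231 FPKM in the control, 8.39 ± 0.830 FPKM with 10 mM and 9.27 ± 0.412 FPKM with 20 mM (SD, n = 3 each). Its log2 fold change was 1.16 (SE 0.08, limma, adjusted p = 1.26e-05) and 1.29 (SE 0.08, limma, adjusted p = 3.56e-06). PODXL2, also called endoglycan, was lower, at 12.9 ± 0.778, 7.77 ± 1.45 and 6.81 ± 0.603 FPKM (SD, n = 3 each), with log2 fold changes of −0.68 (limma, adjusted p = 0.00177) and −0.84 (limma, adjusted p = 0.000363). Of the 5 other secreted mucins, 2 were tested, and MUC6 was the only one called, at 20 mM.

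The sheddases and partners of membrane mucins had 12 of 13 genes tested. At 10 mM 1 was higher (8.33%) and 5 were lower (41.7%), beside 12.1% and 17.5% over all tested genes. At 20 mM 2 were higher (16.7%) and 4 lower (33.3%), beside 15.4% and 21.6%. ICAM1, an adhesion ligand of MUC1, averaged 87.3, 70.8 and 54.9 FPKM and was lower, with log2 fold changes of −0.30 (limma, adjusted p = 0.00945) and −0.66 (limma, adjusted p = 6.53e-05). MMP14, a membrane protease that can shed MUC1, averaged 219, 177 and 177 FPKM, with log2 fold changes of −0.30 at 10 mM (limma, adjusted p = 0.00188) and −0.30 at 20 mM (limma, adjusted p = 0.00124). SRC, a kinase of the MUC1 tail, averaged 10.4, 12.5 and 14.2 FPKM and was higher by 0.41 at 20 mM (limma, adjusted p = 0.00705).

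Several calls of this list were near the threshold. ADAM17, the main MUC1 sheddase, averaged 3.41, 5.04 and 5.47 FPKM and was higher by 0.56 at 20 mM (limma, adjusted p = 0.0244), a call lost in 6 of 14 alternatives (adjusted p up to 0.0779). LGALS1, a galectin, was lower at both doses, at −0.44 (limma, adjusted p = 0.0345) and −0.39 (limma, adjusted p = 0.0449), and lost these calls in 11 and 9 of 14. GRB2, an adaptor of the MUC1 tail, was lower, with log2 fold changes of −0.19 at 10 mM (limma, adjusted p = 0.0151) and −0.16 at 20 mM (limma, adjusted p = 0.0252), lost in 2 and 7 of 14. At 10 mM only, MSLN, the ligand of MUC16, was higher by 0.37 (limma, adjusted p = 0.0135), and CTNNB1, or β-catenin, was lower, with a log2 fold change of −0.36 (limma, adjusted p = 0.0211, lost in 5 of 14). Whether these 2 differed between the doses beyond the spread was not shown, since the comparison of 20 with 10 mM called no gene.

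**Figure D5:**
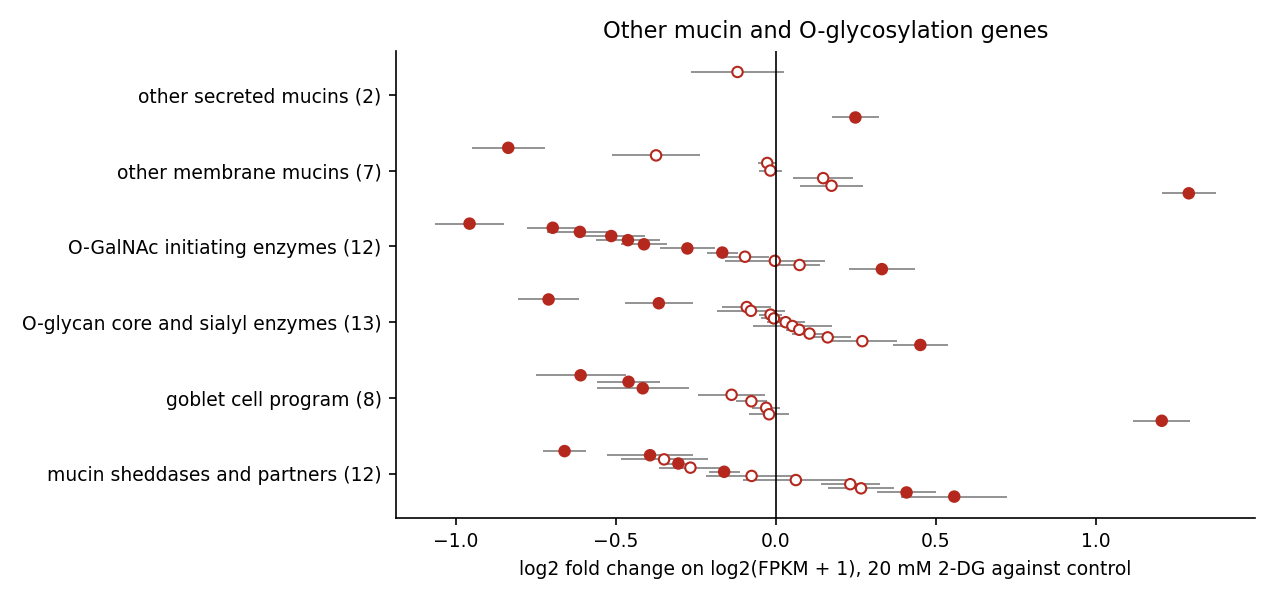
Log2 fold change on log2(FPKM + 1) of 20 mM 2-DG against control (horizontal axis) for the 54 tested genes of 6 lists, with SE bars, filled where the limma adjusted p was under 0.05 and open otherwise; the number tested is given in parentheses. Most GALNT enzymes lie to the left of 0, with GALNT18 lowest at −0.96, and the points farthest to the right are PARM1 at 1.29 and AGR2 at 1.21.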

How the data were processed

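The analysis covered 9 RNA-seq libraries, 3 per condition, grouped by the labels. The authors deposited FPKM values, with a file for each library that lists 61552 genes, 20495 of them unnamed. Per the labels, libraries were made with a SMARTER mRNA-Seq kit, and the submitters' processing notes name GRCh38. The aligner, counting tool, annotation release and use of strand are not given in the sources used here.

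Members and lists were chosen with earlier results of these data known. Whole reads were recovered from the FPKM, since each value times gene length and library total is a whole number. At totals of 30974968 to 40843638, the GENCODE release 29 exon length gave values within 0.000253 of whole numbers for 15941 of 32806 genes above 0, MUC5AC and MUC5B included. For the other 16865, MUC1 and MUC20 included, the length was searched for until the values came out whole (within 0.000159), so wholeness is no check there. One read on a 1 kb gene is worth 0.0245 to 0.0323 FPKM. A common factor of reads and length cannot be seen. Reads are not the authors' counts.

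Ratios of mean FPKM were computed for members, with SE from the 3 libraries per group. Intervals (95%) and the limit for a count of 0 (3 counts) cover counting error only. The intervals were computed for ratios of pooled, depth-scaled reads. Other genes were tested with limma 3.58.1 in R 4.3.3 on log2(FPKM + 1), with a trend and all 9 libraries in one fit. P-values were adjusted by Benjamini-Hochberg over the 16572 genes that reached 10 depth-scaled reads in 3 or more libraries and a total of 15. The conditions shared 1 spread per gene, although their libraries differed unequally. Between library pairs, the mean chi-square of reads per gene was 26.4 to 56.7 at 10 mM. It was 14.1 to 21.5 in the control and 4.66 to 6.57 at 20 mM. The effect of this on the calls was not tested. The count model named in the study's methods was not used, because the deposited values are not counts. Recovered reads were modeled only in the limma-voom alternative. The named list genes were, per list, the up to 4 called genes with the largest change at 20 mM, and any gene that a count of 5 or fewer refers to. The 14 alternatives were a pseudocount of 0.1, all genes above 0, median-ratio scaling, the replicate number as a block, limma-voom on recovered reads, and each library left out in turn. A further alternative for counts took the cut-offs of the study's rule, an unadjusted p under 0.05 with an absolute log2 fold change over 1, applied to the limma differences and, chosen after seeing the data, to ratios of mean FPKM. The scripts were tested on simulated data. A further marker of the line is not reported here.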

Additional observations from a re-analysis of the deposited data

How the results depend on the processing

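The ratios of the 4 detected mucins kept their direction under every alternative run. Median-ratio scaling moved none of the 12 by more than the spread. Differences on log2(FPKM + 1), which shrink for low genes, were smaller. For 10 mM against control, 20 mM against control and 20 against 10 mM they were −1.06, −1.21 and −0.15 for MUC5AC, −0.91, −0.999 and −0.0918 for MUC5B, −0.56, −0.84 and −0.28 for MUC1, and 0.0631, 0.111 and 0.0477 for MUC20. Leaving out each library gave, in the same order, log2 ratios of −3.37 to −2.73, −5.05 to −4.04 and −2.10 to −1.03 for MUC5AC, −3.13 to −2.83, −4.32 to −3.76 and −1.33 to −0.77 for MUC5B, −0.72 to −0.62, −1.13 to −0.93 and −0.47 to −0.26 for MUC1, and 0.98 to 1.30, 1.49 to 1.81 and 0.40 to 0.64 for MUC20. Only the MUC5AC values without 20 mM replicate 3 moved by over 1.5 times.

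Of the list genes, 4 were higher and 14 lower at 10 mM and 7 higher and 18 lower at 20 mM. Median-ratio scaling gave 7 higher at 10 mM. The cut-offs of the study's rule, put on differences of log2(FPKM + 1), left 2 higher and 0 lower at 10 mM and 2 higher and 0 lower at 20 mM. Put on ratios of mean FPKM, an alternative chosen after seeing the data, they gave 2 higher and 1 lower at 10 mM and 2 higher and 3 lower at 20 mM, so the count of 0 lower depends on the scale. Leaving out each library gave 3 to 7 higher and 11 to 15 lower at 10 mM, 4 to 9 higher and 12 to 21 lower at 20 mM, and 0 between the doses. The count of 7 came without 10 mM replicate 2 and the count of 4 without 20 mM replicate 1. No named gene changed sign. The cause of these changes was not tested.

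Replicate numbers did not pair the libraries, since 3 of 9 same-numbered pairs had a correlation of deviations over 0.1 (range −0.4064 to 0.2932). Differently numbered pairs ranged from −0.2303 to 0.5214. The highest were control replicate 1 with 10 mM replicate 2 (0.5214) and control replicate 2 with 10 mM replicate 1 (0.4877). A block by number does not model such likeness, and its source was not tested. With the number as a block, 5 list genes were higher and 13 lower at 10 mM and 7 higher and 14 lower at 20 mM. Depth limits MUC20, MUC2 and MUC16 among the genes described, and the file precision differs, the 20 mM values carrying more decimals than the rest.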
